A study of Mus musculus with 5 samples.

Results

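Epididymal fat, the white fat pad beside the testis, was compared with each of a pair of hind-limb skeletal muscles, the gastrocnemius and the soleus. The samples were the epididymal fat array (n = 1), the gastrocnemius array (n = 1) and the soleus array (n = 1), 3 of the 5 arrays of a microRNA profiling study of mouse fat and muscle. Every tissue came from C57BL/6 mice aged 2 to 3 months, was frozen on dry ice and gave RNA by Trizol and a column kit, and 1 array was hybridised per tissue. No treatment or genetic change is named for any tissue, and no label says how many animals gave each RNA. The members were all 598 probes for mouse microRNAs, each printed in 4 spots, and epididymal fat was set against each muscle apart. The muscles are different tissues and were not treated as replicates of each other. Both comparisons use the same epididymal fat array, so an error on that array enters both. With 1 array per tissue there is no replicate check, no p-value can be given, and every difference below is a difference between single arrays.

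MicroRNAs are short RNAs that pair with messenger RNAs, mainly through bases 2 to 8 of their own sequence, called the seed, and lower the messages they pair with. Skeletal muscle makes a small set of them, the myomiRs, from genes switched on with the muscle fibre programme, and some lie within myosin genes. White fat holds adipocytes beside blood vessels, stromal cells and leukocytes, and each of these cell types has microRNAs by which it is known.

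The mature sequences below are those of some microRNAs with large ratios and of families whose members share a seed. They were taken from RefSeq on GRCm38.p6 and are written 5′ to 3′ with the seed in capitals. No sequence is shown for miR-133a, miR-133a*, miR-1 and miR-193, which also had large ratios. Of the 72 microRNAs past the 2-fold limit in either comparison, 59 were matched to a sequence. The first set passed 2-fold lower in epididymal fat against each muscle, except miR-499, which passed against soleus and had no ratio against gastrocnemius. miR-206 lies at chr1:20679055-20679076 and miR-133b at chr1:20682834-20682855, both on the plus strand and 3779 bases apart. miR-208b lies at chr14:54975710-54975731 on the minus strand, and miR-499 at chr2:155622893-155622913, miR-434-3p at chr12:109594565-109594586 and miR-196a at chr11:96265187-96265208 and chr15:102973365-102973386, all on the plus strand.
miR-206: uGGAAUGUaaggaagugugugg
miR-133b: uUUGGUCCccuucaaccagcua
miR-208b: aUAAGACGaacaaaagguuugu
miR-499: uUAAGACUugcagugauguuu
miR-434-3p: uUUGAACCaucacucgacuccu
miR-196a: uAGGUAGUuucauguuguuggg
The second set passed 2-fold higher in epididymal fat against each muscle, except miR-200c, which passed against soleus only, and miR-107 and miR-429, relatives that passed against neither. miR-708 lies at chr7:96249450-96249472 and miR-103 at chr2:131288103-131288125 and chr11:35782447-35782469, all on the plus strand. miR-200a lies at chr4:156054911-156054932 and miR-200b at chr4:156055685-156055706, while miR-141 lies at chr6:124717917-124717938 and miR-200c at chr6:124718324-124718346, all on the minus strand.
miR-708: aAGGAGCUuacaaucuagcuggg
miR-103: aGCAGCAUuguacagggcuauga
miR-107: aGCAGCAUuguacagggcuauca
miR-200a: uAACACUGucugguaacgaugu
miR-141: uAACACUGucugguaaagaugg
miR-200b: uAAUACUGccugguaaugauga
miR-200c: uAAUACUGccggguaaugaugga
miR-429: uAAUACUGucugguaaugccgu
miR-34a: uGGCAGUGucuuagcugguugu
miR-34b-5p: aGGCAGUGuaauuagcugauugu
miR-142-5p: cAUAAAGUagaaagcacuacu
miR-203: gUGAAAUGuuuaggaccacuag
The seed of miR-200a is that of miR-141, and the seed of miR-200b is that of miR-200c and miR-429. miR-103 and miR-107 share a seed and most of their length, and so do miR-133a and miR-133b. Probes for such close relatives can capture each other's RNA, so how signal divides among the members of a family is uncertain here.

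A microRNA was taken as detected when its signal after background subtraction was at least 50 units, and 157 were detected in epididymal fat, against 165 in gastrocnemius and 170 in soleus. Of the 598, 136 were detected on all 3 arrays and 407 on none of them. Levels below are the authors' normalized intensities, each being the background-subtracted signal divided by that array's median over the microRNAs above 50 units in all samples. That divisor was 396 units for epididymal fat, 408 for gastrocnemius and 468 for soleus. Where a microRNA was under the floor in 1 tissue, its level there was raised to the lowest detected level of that array, or to its own where that was higher, and "at least N-fold" marks such a bound. Of 5 spiked control RNAs used for a check, the median signal was lower on the epididymal fat array (-0.27 on the log2 scale from the centre of the 5 arrays) than on the gastrocnemius (0.26) and soleus (0.34) arrays.

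Epididymal fat over gastrocnemius gave 184 microRNAs detected in at least 1 of the pair with a ratio that could be formed. Of these, 32 were at least 2-fold higher in epididymal fat (17.4%) and 28 at least 2-fold lower (15.2%), 32.6% in all. Of the 32 that were higher, 7 were bounds, and of the 28 that were lower, 15 were bounds. Over the 138 microRNAs detected in both tissues the median log2 ratio was 0.21, with quartiles of -0.28 and 0.69. The split of 32 higher and 28 lower became 56 and 22 when the arrays were scaled on the spiked controls, and 20 and 41 when they were scaled on the 75th percentile of the probes detected on all 5 arrays. Across the 6 other scalings, 18 of the 32 and 21 of the 28 stayed past 2-fold in every one. A value given below "under another scaling" is the smallest over the 6, and more than 1 of them can be under the limit.

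Epididymal fat over soleus gave 187 such microRNAs, with 41 at least 2-fold higher in epididymal fat (21.9%) and 26 at least 2-fold lower (13.9%), 35.8% in all. Bounds made up 8 of the 41 and 14 of the 26. The median log2 ratio over the 140 detected in both was 0.20, with quartiles of -0.31 and 0.89. The split of 41 and 26 became 58 and 21 on the spiked controls, 25 and 37 on the 75th percentile of the shared probes, and 26 and 36 with no scaling. In every one of the other scalings 25 of the 41 and 17 of the 26 stayed past 2-fold. The spread between the 4 spots of a probe gave a median standard error of 0.12 (log2) for a ratio in either comparison, and this covers technical error on the array only. Its 95th percentile was 0.30 against gastrocnemius and 0.35 against soleus.

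**Figure D1:**
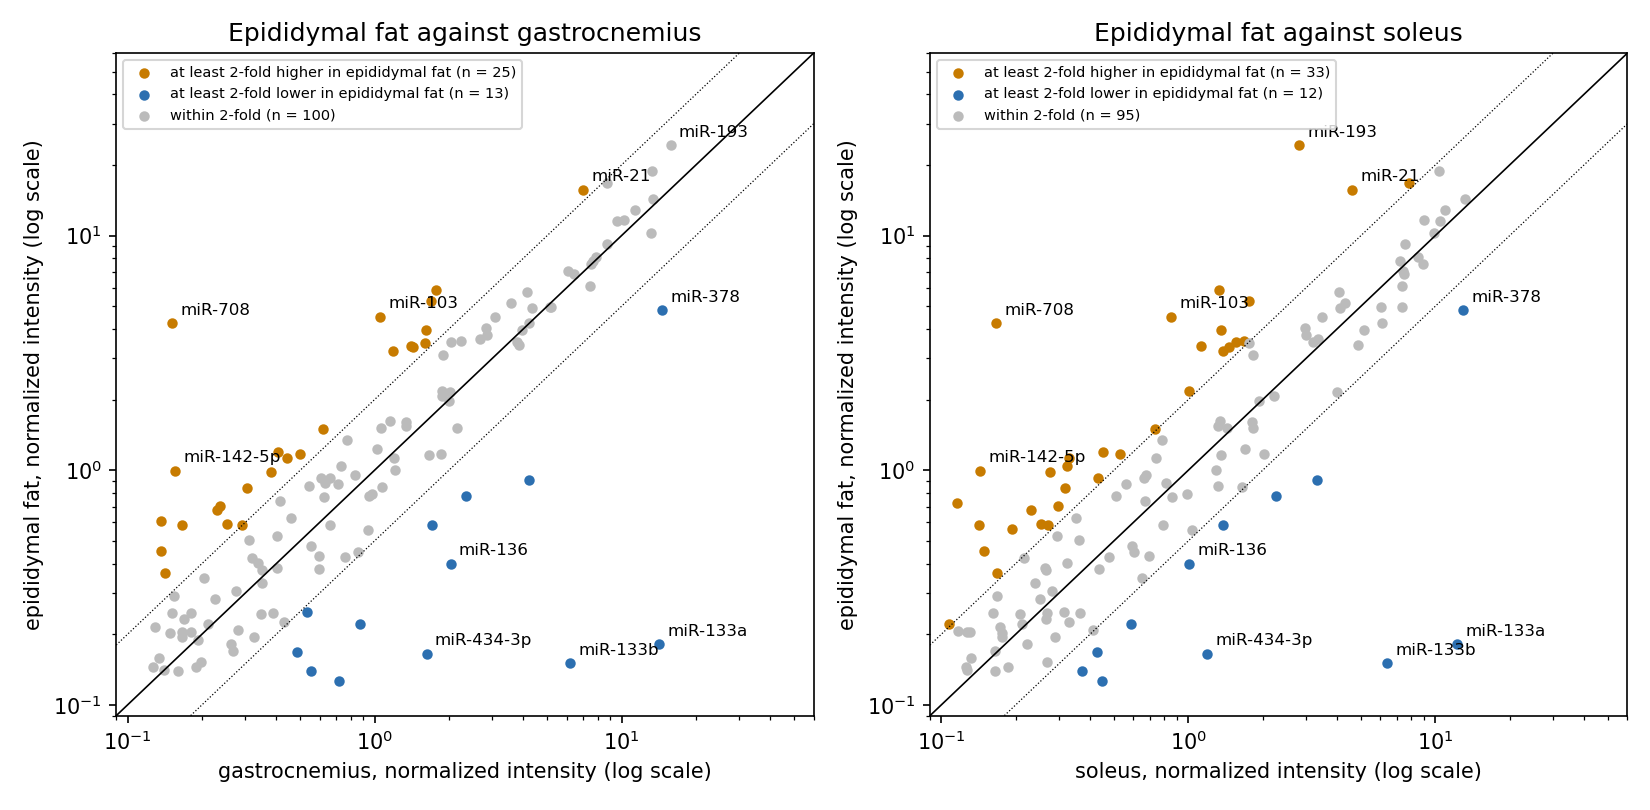
Normalized intensity of each mouse microRNA in epididymal fat against gastrocnemius (left) and soleus (right), both axes logarithmic, 1 point per microRNA and 1 array per tissue. Only microRNAs detected in both tissues of a panel are drawn, the solid line is equality and the dotted lines are 2-fold. miR-133a and miR-133b lie far on the muscle side in both panels, miR-708 lies on the epididymal fat side, and miR-193 passes 2-fold on that side in the soleus panel only.

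The muscle microRNAs were the lowest in epididymal fat relative to either muscle. In the striated muscle list, 7 of the 7 members above the floor were past 2-fold lower against gastrocnemius, with a median log2 ratio of -4.93, and 8 of 8 against soleus, with a median of -5.16. The summed signal of the 9 listed probes was 176 units in epididymal fat, against 15118 in gastrocnemius and 25827 in soleus. Over all microRNAs 15.2% and 13.9% were this much lower. Only miR-133a and miR-133b of this list were detected in epididymal fat, and none of its members was at 0 there. The other members above the floor were detected in muscle alone, so they could pass the limit only as lower. In RNA from whole tissue, fewer cells of a type and less RNA per cell cannot be told apart, and this holds for every list here.

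miR-133a, made from the same transcripts as miR-1 and known for its part in myoblast growth, had a level of 0.182 in epididymal fat, against 14.2 in gastrocnemius and 12.3 in soleus. It was 78.0-fold lower in epididymal fat than in gastrocnemius (log2 -6.29 ± 0.06, spot SE) and 67.6-fold lower than in soleus (log2 -6.08 ± 0.06). miR-206, which is nearly restricted to skeletal muscle, gave 2.5 units in epididymal fat, under the floor, against levels of 7.33 in gastrocnemius and 11.4 in soleus. These made it at least 58.1-fold lower than in gastrocnemius and at least 90.4-fold lower than in soleus. Its neighbour miR-133b had 0.150 in epididymal fat, against 6.21 in gastrocnemius and 6.39 in soleus, or 41.3-fold and 42.5-fold lower. The passenger strand miR-133a* was at least 30.5-fold lower than in gastrocnemius and at least 30.1-fold lower than in soleus. miR-1, which promotes muscle differentiation, was at least 29.7-fold and at least 27.1-fold lower. All 5 had their higher level in muscle in each comparison. Their size depended on scaling: the smallest values over the other scalings were 41.7-fold for miR-133a, 27.5-fold for miR-206 and 14.5-fold for miR-1 against gastrocnemius. Against soleus they were 38.2-fold, 42.3-fold and 13.2-fold.

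The microRNAs of the slow myosin genes were lower in epididymal fat by different amounts in the comparisons. miR-208b, encoded within Myh7, the slow myosin heavy chain gene, gave 0.5 units in epididymal fat, against levels of 0.587 in gastrocnemius and 15.99 in soleus. It was at least 4.65-fold lower than in gastrocnemius and at least 127-fold lower than in soleus, the largest ratio of either comparison, with smallest values of 2.52 and 61.5 over the scalings. miR-499, encoded within Myh7b, gave 3 units in epididymal fat, against 32 units in gastrocnemius, both under the floor, so no ratio was formed. Against soleus, where its level was 1.43, it was at least 11.3-fold lower. miR-486, which lies within the ankyrin gene Ank1 and is abundant in muscle and in red cells, gave 28 units in epididymal fat and was at least 8.48-fold lower than in gastrocnemius (level 1.07) and at least 2.95-fold lower than in soleus (0.372). The soleus bound was 1.96, under the limit, in 1 of the scalings.

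**Figure D2:**
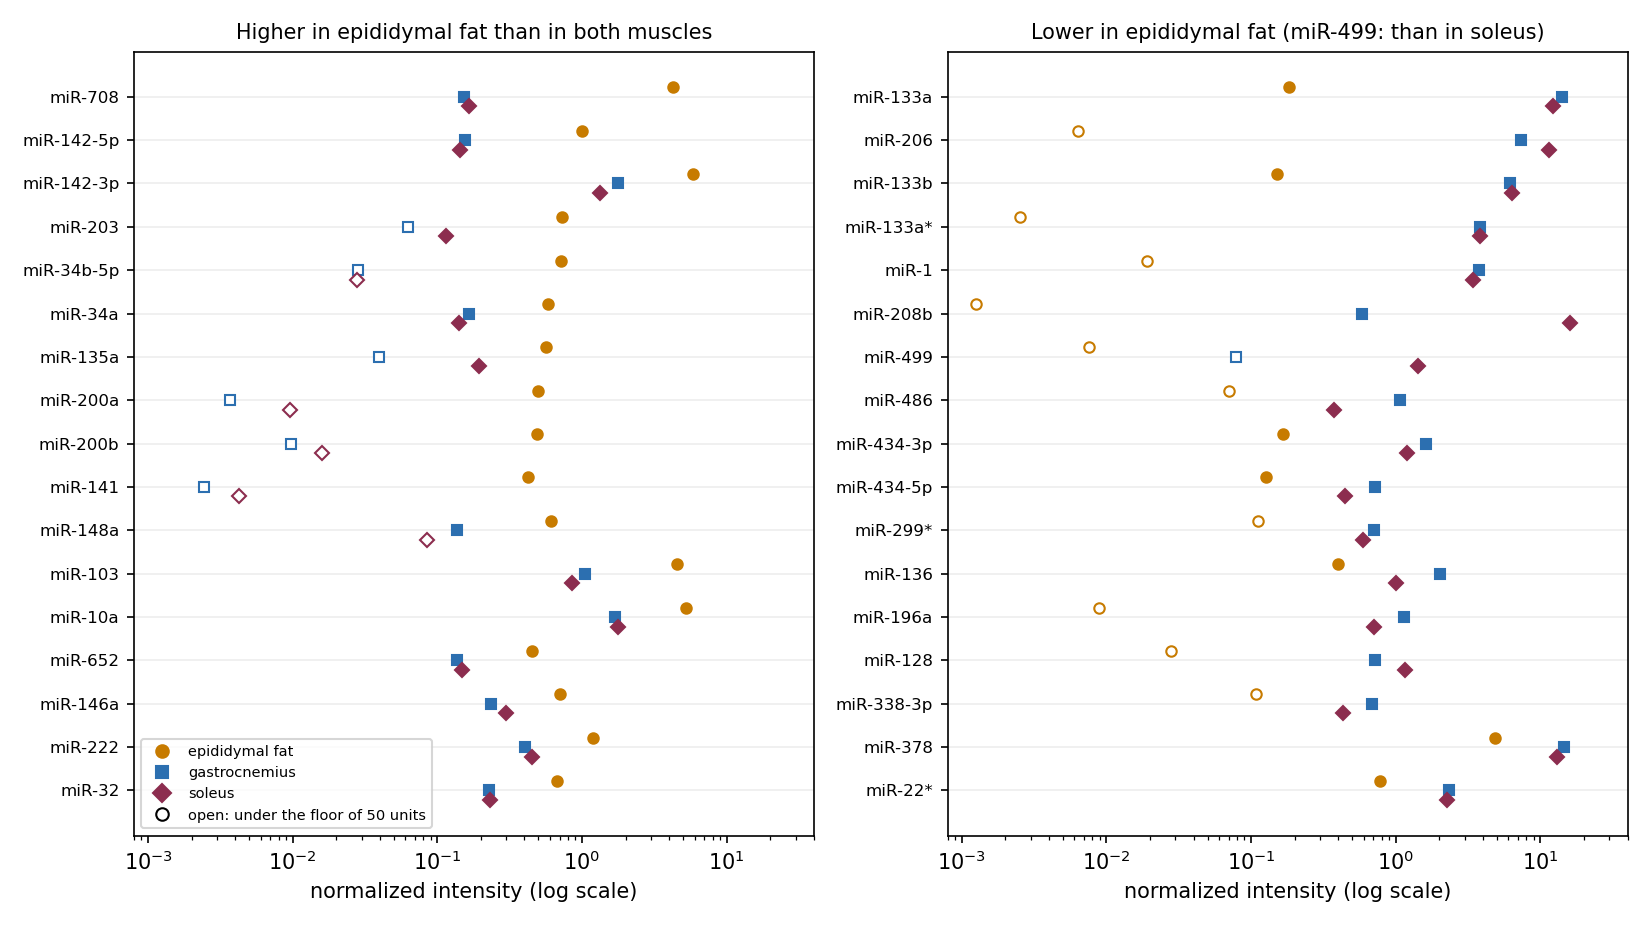
Normalized intensity, on a logarithmic axis, of selected microRNAs past the 2-fold limit, with those higher in epididymal fat in the left panel and those lower in the right panel. Each row holds 1 point for epididymal fat, 1 for gastrocnemius and 1 for soleus, and open points are under the floor of 50 units. miR-206, miR-1 and miR-208b have open points for epididymal fat and filled points for both muscles.

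The imprinted Dlk1-Dio3 region on chromosome 12 encodes microRNAs that are made from the maternal copy, and some of those above the floor were past 2-fold lower in epididymal fat. Of the 53 listed probes on the array, 12 were detected in epididymal fat, against 15 in gastrocnemius and 16 in soleus. The list is a chosen one and leaves out some probes of the region, such as miR-382*. Against gastrocnemius, 8 of the 16 above the floor were past 2-fold lower, 0 were higher, and the median log2 ratio was -1.05. Against soleus, 8 of 17 were lower and 0 higher, with a median of -0.97. Over all microRNAs 15.2% and 13.9% were lower, and their median log2 ratios, bounds included as in the list, were 0.18 and 0.14. Neither list median changed sign under any scaling. Members under the floor in epididymal fat could pass the limit only as lower, and miR-299*, miR-377 and miR-381 passed in that way. Over the 11 members detected in both tissues of a comparison, the medians were -1.53 against gastrocnemius and -1.34 against soleus. Over all microRNAs detected in both tissues the medians were 0.21 and 0.20.

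miR-434-3p, which lies antisense to the retrotransposon-like gene Rtl1, had a level of 0.165 in epididymal fat, against 1.62 in gastrocnemius and 1.20 in soleus. It was 9.82-fold lower than in gastrocnemius and 7.23-fold lower than in soleus. The other arm of the same hairpin, miR-434-5p, sat exactly at the floor in epididymal fat and was 5.66-fold and 3.55-fold lower. miR-136, antisense to the same gene, had 0.400 in epididymal fat, against 2.03 in gastrocnemius and 1.01 in soleus. Its ratio was 5.08-fold lower against gastrocnemius and 2.53-fold lower against soleus. The second stayed past 2-fold in 4 of the 6 other scalings and was as low as 1.95. Against gastrocnemius, miR-299* was at least 5.63-fold lower, miR-329 was 3.93-fold lower and miR-127 was 3.93-fold lower. Against soleus the same probes were at least 4.72-fold, 2.64-fold and 2.65-fold lower, and the last 2 of these were under 2-fold in 1 of the 6 scalings. miR-411 was 2.89-fold lower against gastrocnemius and 2.55-fold lower against soleus, with smallest values of 1.89 and 1.90 over the scalings. miR-377 passed the limit only against gastrocnemius, at least 2.24-fold lower, and miR-381 only against soleus, at least 2.16-fold lower, with smallest bounds of 1.52 and 1.54. Not every microRNA of the region moved this far, since miR-379 was 1.92-fold lower against gastrocnemius and 1.34-fold lower against soleus.

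The microRNAs of the Hox clusters, which are set by position along the body axis, differed in both directions. miR-196a, which lies in the Hox clusters and pairs with Hoxb8, gave 3.5 units in epididymal fat, against 465.5 units in gastrocnemius and 329 in soleus. It was at least 9.04-fold lower than in gastrocnemius and at least 5.57-fold lower than in soleus. On the other fat arrays the same probe gave 177.5 units in inguinal fat and 0.5 units in brown fat. miR-196b, which shares its seed, gave 6.5 units in epididymal fat and was at least 2.05-fold lower than in gastrocnemius. That bound stayed past 2-fold in only 2 of the 6 other scalings and was as low as 1.44. Against soleus miR-196b was at least 1.51-fold lower. miR-10a, which lies beside Hoxb4, went the other way. Its level was 5.26 in epididymal fat, against 1.69 in gastrocnemius and 1.76 in soleus, or 3.12-fold and 2.99-fold higher. miR-10b, with the same seed and beside Hoxd4, was 1.59-fold higher against gastrocnemius and 2.12-fold higher against soleus. The soleus ratio stayed past 2-fold in 3 of the 6 other scalings, with a smallest value of 1.70. The list's median was -0.18 against gastrocnemius, with its sign turned by 2 of the 6 scalings, and 0.25 against soleus, turned by 1.

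Other microRNAs past 2-fold lower in epididymal fat came from the remaining lists or from none. miR-378, encoded within Ppargc1b, a coactivator of mitochondrial genes, had 4.82 in epididymal fat, against 14.6 in gastrocnemius and 12.99 in soleus. It was 3.03-fold and 2.69-fold lower, and its passenger strand miR-378* was at least 3.71-fold and at least 3.54-fold lower. miR-128, known from brain and also made in muscle, gave 11 units in epididymal fat and was at least 5.73-fold lower than in gastrocnemius and at least 9.18-fold lower than in soleus. miR-338-3p lies in the gene Aatk and is known from the nervous system. It gave 43 units in epididymal fat, against 279 in gastrocnemius and 203 in soleus. The other fat arrays gave 397 units in inguinal fat and 207.5 in brown fat. Its bounds were 5.42-fold and 3.44-fold lower. The probe named miR-805 was 4.65-fold lower than in gastrocnemius and 3.63-fold lower than in soleus. miR-27b, reported to restrain adipocyte differentiation, was at least 2.43-fold lower than in gastrocnemius and at least 2.81-fold lower than in soleus, with smallest bounds of 1.60 and 1.89 over the scalings.

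Among the microRNAs higher in epididymal fat, miR-708 had the largest ratio in each comparison. It is encoded within Tenm4, a teneurin gene. Its level was 4.23 in epididymal fat, against 0.152 in gastrocnemius and 0.167 in soleus, where it was close to the floor. It was 27.8-fold higher than in gastrocnemius (log2 4.80 ± 0.07, spot SE) and 25.4-fold higher than in soleus (log2 4.67 ± 0.11). The smallest values over the scalings were 15.4-fold and 14.8-fold. miR-135a was at least 4.55-fold higher than in gastrocnemius and 2.91-fold higher than in soleus. miR-652 was 3.31-fold and 3.03-fold higher, and miR-339-5p was 2.77-fold and 2.65-fold higher. The soleus ratio of miR-339-5p had a spot SE of 0.49 on the log2 scale.

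The list of microRNAs reported in white adipocytes was mixed. Against gastrocnemius 3 of its 11 members above the floor were higher and 2 were lower (median log2 ratio 0.74), and against soleus 5 were higher and 2 lower, with a median of 0.80. Over all microRNAs 17.4% were higher and 15.2% lower against gastrocnemius, and 21.9% and 13.9% against soleus. The share of members lower was near that of all microRNAs. miR-103, which lies in a pantothenate kinase gene and is known for limiting insulin sensitivity through caveolin, had 4.52 in epididymal fat, against 1.05 in gastrocnemius and 0.853 in soleus. It was 4.29-fold and 5.30-fold higher. miR-107, its relative with the same seed, was 1.67-fold higher against gastrocnemius and 1.24-fold higher against soleus, with a spot SE of 0.42 and 0.41 on the log2 scale. miR-148a, which is abundant in fat and liver, was 4.48-fold higher than in gastrocnemius and at least 5.65-fold higher than in soleus. miR-222, which pairs with the cell-cycle inhibitor p27, was 2.95-fold and 2.66-fold higher, while miR-221, its neighbour with the same seed, was 1.89-fold and 1.74-fold higher. The soleus ratio of miR-222 had a spot SE of 0.44 on the log2 scale. miR-335-5p, encoded within Mest, a gene of fat expansion, was 1.73-fold higher against gastrocnemius and 2.25-fold higher against soleus, where it was 1.80 under another scaling. The members lower in each comparison were miR-196a and miR-27b. No member of this list is known as restricted to adipocytes, so the list does not by itself mark the tissue as fat.

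The list reported in brown adipocytes had 2 members higher and 2 lower of 10 against gastrocnemius, and 4 higher and 2 lower against soleus. Against gastrocnemius both counts were near the shares of all microRNAs, 17.4% higher and 15.2% lower, and against soleus those shares were 21.9% and 13.9%. Its medians were 0.06, turned negative by 1 scaling, and 0.05, turned negative by 2. The higher members against gastrocnemius were miR-203 and miR-32, and the lower ones were miR-378 and miR-378*. The probe labelled miR-193 had unlike ratios in the comparisons. Its level was 24.3 in epididymal fat, against 15.8 in gastrocnemius and 2.81 in soleus, which made it 1.54-fold higher against gastrocnemius and 8.64-fold higher against soleus. miR-365, which is made together with members of the miR-193 family, was 1.16-fold higher against gastrocnemius and 2.15-fold higher against soleus (1.72 under another scaling). miR-193b gave 49.5 units in epididymal fat, just under the floor, against 87.5 in gastrocnemius and 69.5 in soleus.

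Epithelial microRNAs were detected in epididymal fat and mostly not in the muscles. Of the 12 listed probes, 5 were detected in epididymal fat, against 0 in gastrocnemius and 1 in soleus, and the summed signal was 1023 units, against 64 and 120. The sum was higher in brown fat, at 1319.5 units with 3 probes detected, and was 344 units in inguinal fat with 1 detected. Of the 5 above the floor in epididymal fat, 4 passed 2-fold higher against gastrocnemius and 5 against soleus, where 17.4% and 21.9% of all microRNAs did. A member detected in epididymal fat but not in the muscle could pass the limit only as higher. This held for all 5 against gastrocnemius and for all but miR-203 against soleus, so these counts do not test direction. In soleus 1 of the 12 was at or under 0, and in epididymal fat 0 were. The miR-200 family holds cells in the epithelial state by lowering Zeb1 and Zeb2. miR-200a gave 197 units in epididymal fat, against 1.5 in gastrocnemius and 4.5 in soleus, and miR-200b gave 193, against 4 and 7.5. miR-141 gave 166.5 units, against 1 and 2, and miR-200c gave 90, against 0.5 and 2. The muscle values of all 4 probes were far under the floor, but the soleus spots of miR-200b ranged from 2 to 662 units. Only bounds can be given. Those bounds were 4.02-fold, 3.94-fold, 3.39-fold and 1.84-fold higher than in gastrocnemius, and 4.61-fold, 4.51-fold, 3.89-fold and 2.11-fold higher than in soleus. The last soleus bound stayed past 2-fold in 3 of the 6 other scalings and was as low as 1.59. miR-203, known from skin epithelium where it lowers p63, was at least 5.85-fold higher than in gastrocnemius and 6.28-fold higher than in soleus. Its probe gave 287 units in epididymal fat and 757 in brown fat. miR-429 gave 32 units in epididymal fat, and miR-205, another epithelial marker, gave 7.5 units, both under the floor. Of 157 microRNAs detected in epididymal fat, 8 were detected on none of the other 4 arrays, and they included miR-200a, miR-200b, miR-200c and miR-141. The others were miR-34c, miR-218, miR-125b* and miR-411*. The last differed little, with 55.5 units in epididymal fat and up to 47 on the other arrays.

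The miR-34 family, known as targets of p53 and abundant in ciliated epithelium and testis, followed the same direction. Its 3 detected members were higher against either muscle, with median log2 ratios of 1.82 against gastrocnemius and 2.04 against soleus. The shares higher over all microRNAs were 17.4% and 21.9%. miR-34b-5p and miR-34c were under the floor in both muscles, so they could pass the limit only as higher. miR-34b-5p gave 282.5 units in epididymal fat, against 11.5 in gastrocnemius and 13 in soleus, and was at least 5.76-fold and at least 6.61-fold higher. miR-34a had a level of 0.586 in epididymal fat, against 0.166 in gastrocnemius and 0.142 in soleus, or 3.54-fold and 4.12-fold higher. miR-34c gave 137.5 units, against 2.5 and 3.5, and was at least 2.80-fold (1.95 under another scaling) and at least 3.22-fold higher. Whether epithelial cells near the fat pad take part in these values was not tested.

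**Figure D3:**
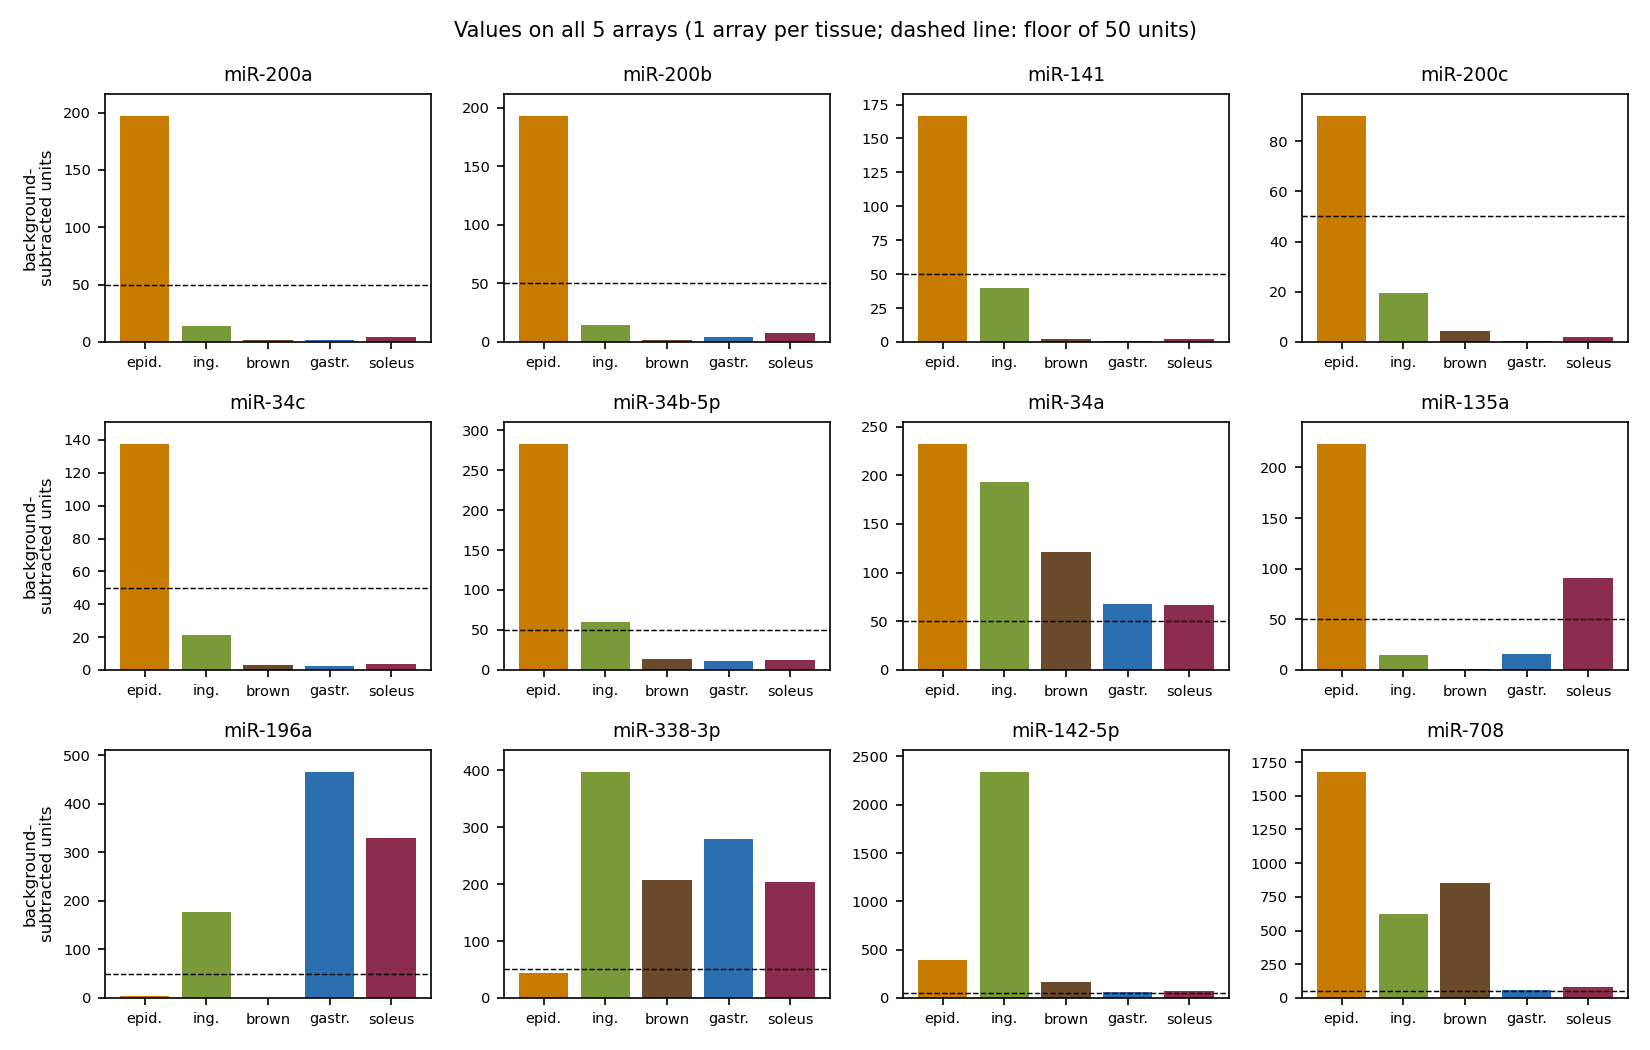
Background-subtracted signal of selected microRNAs on all 5 arrays, on linear axes that start at 0, with 1 bar per tissue and the floor of 50 units marked. The miR-200 members and miR-34c pass the floor on the epididymal fat array alone, while miR-196a and miR-338-3p pass it on both muscle arrays and on inguinal fat but not on epididymal fat. On brown fat miR-338-3p passes it too and miR-196a does not.

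Leukocyte microRNAs were higher in epididymal fat for 5 of the 7 members above the floor in each comparison, with median log2 ratios of 1.36 against gastrocnemius and 1.59 against soleus. Over all microRNAs 17.4% and 21.9% were higher. Their summed signal was 4950 units in epididymal fat, against 1764 in gastrocnemius and 1716 in soleus. miR-142-5p, made in blood cells, had 0.996 in epididymal fat, against 0.156 in gastrocnemius and 0.143 in soleus, or 6.40-fold (log2 2.68 ± 0.36, spot SE) and 6.95-fold higher. The same probe gave 394.5 units in epididymal fat and 2338 units in inguinal fat. The other arm of the hairpin, miR-142-3p, had 5.88, against 1.77 and 1.33, or 3.32-fold and 4.43-fold higher. miR-223, known from neutrophils and monocytes, was 2.40-fold and 3.01-fold higher. miR-146a and miR-146b, which are induced by NF-kB and dampen its signalling, were 2.98-fold and 2.57-fold higher against gastrocnemius, and 2.36-fold and 3.43-fold higher against soleus. Under other scalings miR-223 and miR-146b were as low as 1.77-fold and 1.89-fold higher against gastrocnemius, and miR-146a was 1.89-fold higher against soleus, all under the limit. The lymphocyte marker miR-150 gave 81.5 units in epididymal fat, against 32 in gastrocnemius and 54.5 in soleus, and did not pass 2-fold. miR-155, induced in activated leukocytes, went the other way, with 27.5 units in epididymal fat, under the floor, against 69 and 107. The part of leukocytes in the other differences was not tested.

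The red cell list had 1 member higher (miR-144) and 1 lower (miR-486, described above) of 3 in each comparison. Among all microRNAs 17.4% were higher and 15.2% lower against gastrocnemius, and 21.9% and 13.9% against soleus. The summed signal of the red cell list was 3263 units in epididymal fat, against 2689 in gastrocnemius and 2740 in soleus, and that of the endothelial list was 3816 units, against 3751 and 4582. miR-144, made in red cell precursors, was 2.74-fold higher against gastrocnemius and 2.35-fold higher against soleus, with smallest values of 1.94 and 1.72 over the scalings. miR-451, its neighbour and the more abundant red cell microRNA, was 1.14-fold and 1.20-fold higher. The endothelial list had 0 of 2 members past the limit in either comparison. Of the 7 smooth muscle and stromal members above the floor, 0 were past the limit against gastrocnemius, and against soleus miR-145* alone was, at 2.05-fold higher with a smallest value of 1.56 over the scalings. miR-143 itself was 1.06-fold and 1.23-fold higher in epididymal fat. The stromal list's medians were -0.27, turned positive by 2 scalings, and -0.32, turned positive by 3, and its lowest member was miR-199a-5p against soleus, 1.97-fold lower.

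miR-21, which is raised in many growing and inflamed tissues, had 15.7 in epididymal fat, against 6.98 in gastrocnemius and 4.59 in soleus, or 2.25-fold and 3.42-fold higher. The first of these was 1.65 under another scaling. In the miR-17-92 group and its paralogs, which favour cell division, 3 of 8 members were higher and 0 lower in each comparison. These were miR-106b, miR-93 and miR-106a, and over all microRNAs 17.4% and 21.9% were higher. Each was under 2-fold against gastrocnemius in 1 of the 6 other scalings, with smallest values of 1.81, 1.89 and 1.72, and miR-106a was as low as 1.87 against soleus. miR-93 was 2.57-fold higher against gastrocnemius and 3.56-fold higher against soleus, and miR-106b, from the same intron of Mcm7, was 2.46-fold and 2.93-fold higher. miR-17 and miR-20a, which share the seed of these, were 1.37-fold and 1.33-fold higher against gastrocnemius and 1.78-fold and 1.95-fold higher against soleus. miR-32 was 2.94-fold and 2.93-fold higher, while miR-25 and miR-92a, of the same seed, were under the floor in all 3 tissues.

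The broadly expressed families differed little. For their counts, the shares of all microRNAs were 17.4% higher and 15.2% lower against gastrocnemius, and 21.9% and 13.9% against soleus. In the let-7 family, which marks differentiated cells, let-7e alone of 10 members passed 2-fold against gastrocnemius, at 2.35-fold higher, and let-7e and let-7b did against soleus, at 2.28-fold and 2.15-fold. miR-99b, which lies beside let-7e, was 2.34-fold and 2.20-fold higher. Each of these calls was lost in some scalings, with smallest values of 1.73 and 1.68 for let-7e, 1.72 for let-7b against soleus, and 1.72 and 1.76 for miR-99b. None of the 4 miR-29 and none of the 2 miR-26 microRNAs above the floor passed the limit in either comparison. In the miR-30 family, 2 of 7 members were past 2-fold lower against gastrocnemius, the passenger strands miR-30a* and miR-30e*, and miR-30e* alone against soleus. miR-30a was 1.07-fold and 1.09-fold higher in epididymal fat, while miR-30a* was 2.13-fold lower against gastrocnemius (1.52 under another scaling) and 1.25-fold lower against soleus. miR-30e* was 2.92-fold and 2.36-fold lower (the second 1.82 under another scaling), against 1.57-fold and 1.72-fold lower for miR-30e. In the miR-22 hairpin, miR-22* was 3.01-fold and 2.90-fold lower and miR-22 was 1.04-fold and 1.21-fold lower.

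**Figure D4:**
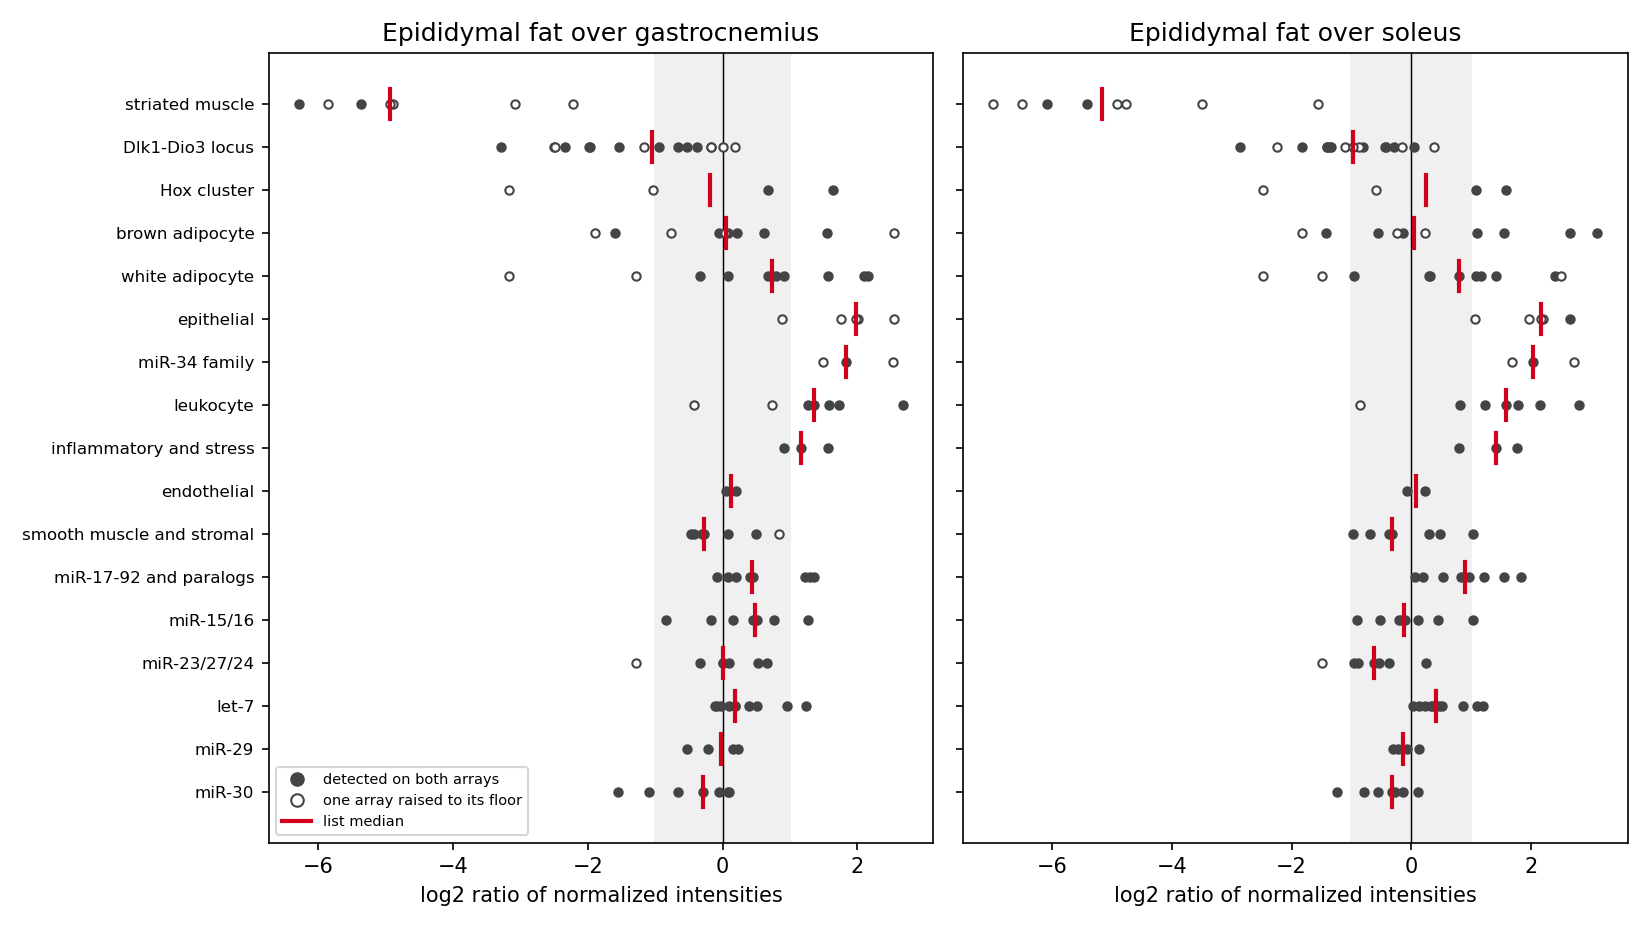
Log2 ratio of epididymal fat over gastrocnemius and over soleus for each member above the floor, by list, with the list median marked and open points for bounds. The shaded band spans 2-fold either way. Of the lists drawn, the striated muscle list has the median furthest below 0. The medians of the epithelial, miR-34, leukocyte, and inflammatory and stress lists lie above the band.

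Values near the limits were as follows. Against gastrocnemius, let-7b fell just outside at 1.93-fold higher and miR-674 just inside at 2.01-fold. Against soleus, miR-130a fell just outside at 1.99-fold higher and miR-145* just inside. The miR-674 ratio against soleus was 2.16-fold higher. On the log2 scale this was 1.11 with a spot SE of 1.36, wider than the log2 ratio itself. Of the called ratios against gastrocnemius, 6 of the 32 higher and 18 of the 28 lower shrank by more than 1.5 times under at least 1 scaling, and against soleus 8 of the 41 higher and 15 of the 26 lower did.

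**Figure D5:**
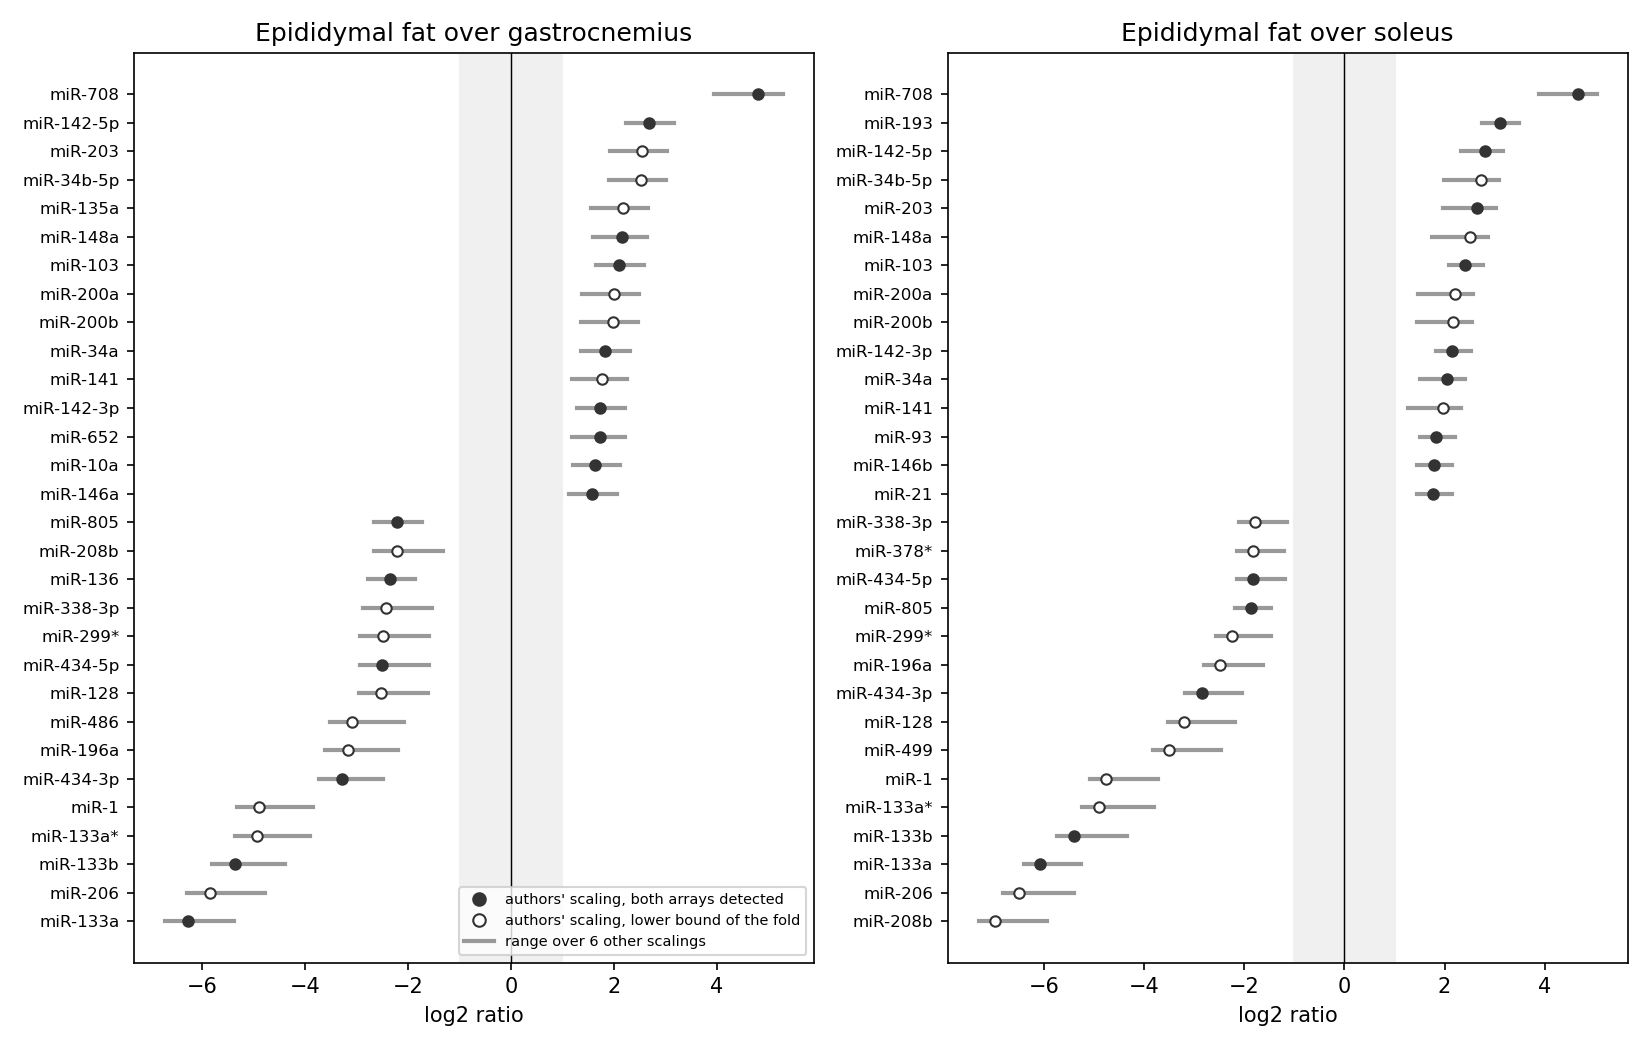
Log2 ratio of epididymal fat over each muscle for the 15 highest and 15 lowest ratios of each comparison, with a point for the authors' normalization (open for bounds), a line for the range over the 6 other scalings and a shaded band for 2-fold either way. None of the lines drawn enters the band, and miR-708 and the myomiRs lie furthest from it.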

How the data were processed

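MicroRNAs were measured on miRCURY LNA arrays, 1 array per tissue. The authors deposited raw spot and background intensities and a matrix of background-subtracted intensities, per the file headers. Per the file headers, the deposited normalized value is a ratio, the intensity divided by that array's median over microRNAs above 50 units in all samples, and these values were used as deposited. Array and probe handling before the scan is as in the labels' protocols, and the image software is not given in the sources used here.

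From these, ratios of epididymal fat over each muscle were computed for mouse probes, with a floor of 50 units and a limit of 2-fold, and a spot standard error from 4 spots. In all, 6 scalings were tried as alternatives (the 75th percentile of all mouse probes, the 75th percentile of probes detected on all 5 arrays, no scaling, quantile, spiked controls, and normexp with an offset of 50 followed by quantile). Other floors (25 and 100), a 3-fold limit and the microRNAs detected in both tissues alone were tried too. The steps were tested on simulated data. Precision is limited by having so few arrays.

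The rule for named microRNAs took the 15 highest and 15 lowest ratios past the limit in each comparison and every detected member of 24 lists, and detected members within 2-fold are mostly given by their list's counts and median. The members and lists were chosen with earlier results of these data known. A few others named in the text (relatives by seed, the other arm of a hairpin, values near a limit) were chosen after their values were seen. Array names are those of the array's design, and sequences came from RefSeq by current name. Python 3.11.15, numpy 2.4.6, pandas 2.3.3, R 4.3.3 and limma 3.58.1 were used.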

Additional observations from a re-analysis of the deposited data

Results flagged for a closer look

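Among the 39 probes for viral microRNAs, which the comparisons did not use, 3 passed 50 units on the arrays described here. The probe mghv-miR-M1-8 of a mouse gammaherpesvirus gave 202 units on the epididymal fat array, against 130 on gastrocnemius and 186 on soleus, and also 245.5 on inguinal fat and 197 on brown fat, so it passed the floor on all 5 arrays. The probe mghv-miR-M1-4 gave 37 units on epididymal fat, against 62.5 on gastrocnemius and 87.5 on soleus. The probe mghv-miR-M1-7-3p gave 23.5 units on epididymal fat, against 22.5 on gastrocnemius and 76.5 on soleus. Whether these probes capture mouse RNA was not tested.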

How the results depend on the processing

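The 7 alternatives were tried on list members and on the 15 highest and lowest ratios. The called ratios among these, with the myomiRs and miR-708, kept their direction under each. The 75th percentile, unscaled and spiked control alternatives shift every log2 ratio of a comparison alike, by less than the 2-fold limit. They could not reverse a called ratio, so for them the kept direction is no test. Bounds used the same detection throughout. The counts moved more. Against gastrocnemius, the 32 higher became 20 with scaling on the 75th percentile of shared probes, 56 on spiked controls and 14 at a 3-fold limit, and the 28 lower became 13 among microRNAs detected in both tissues. The median log2 ratio of 0.21 turned to -0.24 with the first of these scalings and moved to 0.69 with spiked controls. Against soleus, the 41 higher became 25 with the 75th percentile of shared probes, 26 with no scaling and 19 at 3-fold. The 26 lower became 17 with normexp and quantile, 17 with a floor of 100 units, 12 among microRNAs detected in both and 15 at 3-fold. The median of 0.20 turned to -0.12 with the 75th percentile and to -0.036 with no scaling, and moved to 0.57 with spiked controls. Restricting to both tissues or to 3-fold tests fewer microRNAs or asks more of each. With the 75th percentile, unscaled and spiked control scalings, each median moved by the shift that all ratios of that comparison share. Why the scalings differ was not tested.

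No paired analysis was possible because epididymal fat and either muscle had a single array apiece, so there was also no replicate to leave out. Signals under 50 units gave bounds only, and the spot spread covers technical error alone.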

Other observations

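The remaining lists had few members past 2-fold in epididymal fat. Among all microRNAs 17.4% were higher and 15.2% lower against gastrocnemius, and 21.9% and 13.9% against soleus. Of 3 inflammatory and stress microRNAs above the floor, 2 were higher in each comparison, miR-21 and miR-222, with medians of 1.17 against gastrocnemius and 1.41 against soleus. In the miR-15/16 family, miR-15b alone of 8 passed, 2.42-fold higher against gastrocnemius and 2.05-fold higher against soleus, with smallest values of 1.78 and 1.64 over the scalings. In the miR-23/27/24 family, miR-27b alone of 7 passed, and miR-24 was 1.00-fold against gastrocnemius and 1.45-fold lower against soleus. In the miR-99/100 and miR-125 group, miR-99b alone of 6 passed. In the miR-181 family, miR-181b was at least 2.10-fold lower against gastrocnemius, and 0 of 2 members passed against soleus. The miR-181b bound stayed past 2-fold in only 2 of the 6 other scalings and was as low as 1.46. In the neural list, miR-128 was lower in each comparison and miR-218 was at least 2.07-fold higher against soleus. The miR-218 bound stayed past 2-fold in 3 of the 6 other scalings and was as low as 1.58. The liver list had 0 members past the limit, and miR-122, which marks hepatocytes, was at most 12.5 units on these arrays.

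Outside every list, miR-130a was 2.19-fold higher against gastrocnemius (1.61 under another scaling), and its seed relative miR-301a was 1.53-fold higher against gastrocnemius and 2.17-fold higher against soleus (1.73 under another scaling). miR-350 was 1.42-fold and 3.22-fold higher. miR-423-5p was 2.57-fold and 2.16-fold higher, with smallest values of 1.87 and 1.71 over the scalings. miR-677 was at least 2.35-fold lower against gastrocnemius and at least 2.49-fold lower against soleus, with smallest bounds of 1.57 and 1.72.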
